A study of Nothobranchius furzeri with 15 samples.

Results

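The most abundant liver transcripts of the turquoise killifish were taken here as the genes whose mean level over all 15 liver libraries lay above 1000 CPM. CPM is a gene's share of its library's counts, scaled to a fixed total common to all libraries and corrected by the TMM method. Of 26739 gene identifiers in the counts table, 15834 passed a filter on low counts, and 142 of these (0.897%) lay above 1000 CPM. They are called abundant transcripts below and are numbered by rank, rank 1 having the highest mean. They were chosen by their mean CPM over all libraries, and for this reason their abundance and their share of the counts are a description and no test. Liver RNA came from male fish of Nothobranchius furzeri, an annual fish kept as a short-lived model of ageing, of the inbred GRZ strain at 9 weeks of age. The 5 libraries of the control group came from fish given DMSO (a solvent), 5 from fish given rotenone at 15 pM and 5 from fish given rotenone at 150 pM. The labels do not say how long the treatment lasted, whether the rotenone groups also received DMSO, or whether every library is a separate fish, and the spread behind the p-values may in part be technical. Libraries are named by group and by the number in their titles, 1 to 5 for DMSO and 15 pM and 8 to 12 for 150 pM.

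The vertebrate liver makes most of the proteins of blood plasma, and a small number of messenger RNAs for such secreted proteins usually takes up much of the RNA of a hepatocyte. Transcripts for metabolic enzymes, ribosomal proteins and the subunits encoded in the mitochondrial genome are the other classes that are commonly abundant in liver RNA. Rotenone blocks complex I of the mitochondrial respiratory chain, the entry point for electrons from NADH. In whole tissue, fewer cells of a type and less RNA per cell cannot be told apart, and because CPM is a share of a total, a large change in a few abundant transcripts shifts the CPM of the others.

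The files do not pair identifiers with gene names, and the reference table at hand holds 0 of the identifiers. No name, role or sequence is therefore given for any abundant transcript, and lists of plasma proteins, ribosomal genes or markers of hepatocytes and other cell types could not be applied. The label "liver" was for the same reason not checked against markers. Total counts per library ran from 22185038 to 35672589, so that 1000 CPM stood for about 22190 counts in the shallowest library, where counting error alone has a coefficient of variation of 0.671%. Counting error is thus small at these levels beside the spread between libraries given below. One library, 15 pM library 4, stood apart from the other 14, over all genes tested as well as among the abundant transcripts. In addition, ranks 1 to 10 held a smaller share of the counts in 150 pM libraries 8 and 10 than in the other 3 of their group. Over all genes tested these 2 did not stand apart. Their median absolute deviation from the gene medians, in log2 CPM, was 0.262 and 0.279, against 0.254 to 0.274 in the other 3. Values without these libraries stand beside the share of counts, the spread, the calls and the summed levels below.

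The levels of the abundant transcripts spanned 58.1-fold from the highest mean to the lowest. Rank 1, Nfu_g_1_014314, averaged 58229 CPM over the 15 libraries and alone held 10% of the summed CPM of the 142. Ranks 2 to 5 (Nfu_g_1_015843, Nfu_g_1_005996, Nfu_g_1_020367 and Nfu_g_1_002363) averaged 47499, 39587, 32018 and 24829 CPM. Ranks 6 to 10 (Nfu_g_1_011044, Nfu_g_1_019225, Nfu_g_1_000093, Nfu_g_1_007204 and Nfu_g_1_018164) averaged 18214, 16335, 14129, 11318 and 10855 CPM. These 10 were the transcripts with a mean above 10000 CPM, and a further 48 lay between 2000 and 10000 CPM and 84 under 2000 CPM. The first 3 ranks held 25% of the summed CPM, the first 10 held 46.9% and the first 13 held 51.4%. Ranks 11 to 50 held 30.1% and ranks 51 to 142 held 23.1%.

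**Figure D1:**
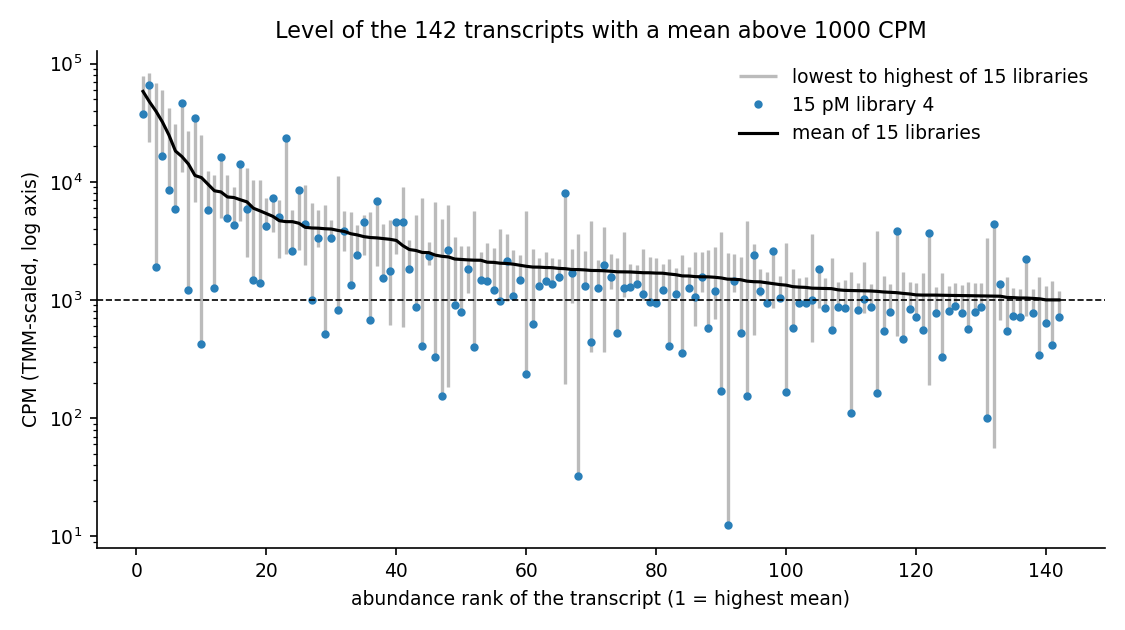
Level of each of the 142 abundant transcripts against its abundance rank, in CPM on a log axis. The black line is the mean of 15 libraries, grey bars run from the lowest to the highest library, blue points are 15 pM library 4 and the dashed line is 1000 CPM. The mean drops from 58229 CPM to just above the dashed line, and the blue points lie at the foot of the grey bar in 88 of the 142.

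The members just inside and just outside the threshold were close to each other. Ranks 140 to 142 averaged 1003.06, 1003.03 and 1002.72 CPM, and the next 3 genes averaged 991.5, 990.9 and 986.0 CPM. Only 60 of the 142 were above 1000 CPM in all 15 libraries, and 113 were above it in the mean of every group. Of the 29 others, 19 were at or under 1000 CPM in the DMSO mean, 9 in the 15 pM mean and 7 in the 150 pM mean. Conversely, 99 genes outside the list exceeded 1000 CPM in at least 1 library. With the median over the libraries in place of the mean, 134 genes passed, of which 133 were on the list.

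Rank 1 in CPM was also the highest transcript per length. Gene lengths were recovered from the authors' deposited RPKM table. On the scale of CPM per kilobase, rank 1 (783 bases) had a mean level of 74367, followed by rank 6 (621 bases) at 29329, rank 11 (Nfu_g_1_021050, 699 bases) at 13649, rank 3 (4361 bases) at 9078 and rank 13 (Nfu_g_1_019160, 974 bases) at 8434. The second transcript in CPM, which is 6210 bases long, was seventh per length, at 7649 CPM per kilobase. Of the 10 highest by CPM, 7 were among the 10 highest per length, and all 10 of the highest genes per length were abundant transcripts. The abundant transcripts had a median length of 2060 bases (321 to 11777) against 2811.5 for the 15834 genes tested, and 49.3% of them were under 2000 bases against 36.4% of genes tested. Among as many genes ranked by level per length, 89 of the 142 were found again.

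The first place was not held by one transcript in all livers. Rank 1 was the highest in 11 libraries. In DMSO its levels in libraries 1 to 5 were 50989, 59212, 63122, 45760.0 and 60888 CPM, at 15 pM they were 56029.8, 78584, 72188, 37667 and 67918 CPM, and in 150 pM libraries 8 to 12 they were 48141, 65829.5, 46651, 68745 and 51709.6 CPM. The 3 groups overlapped, and 15 pM library 4 was the lowest of all. Rank 2 stood at 49610.1, 59009.6, 40725, 82748 and 56968 CPM in DMSO, at 58295, 33932, 30144, 66261 and 41147 CPM at 15 pM and at 26255, 35631, 21861, 54299.9 and 55599 CPM at 150 pM. It led in DMSO 4, 15 pM 1 and 15 pM 4, and its 3 lowest values came from 150 pM libraries 10 and 8 and 15 pM library 3. Rank 3 stood at 31085, 49598, 51487, 23326 and 49086 CPM in DMSO, at 26382, 68439.9, 59401, 1914 and 42668 CPM at 15 pM and at 20690.3, 38101, 10405, 62139 and 59086 CPM at 150 pM. It was the highest transcript of 150 pM library 12, lay far below all others in 15 pM library 4, and was low in 150 pM library 10. Of the 10 highest transcripts of each library, between 6 (15 pM library 4) and 10 (15 pM libraries 2 and 3) belonged to ranks 1 to 10.

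Together the abundant transcripts held 57.9% of all counts of the 15 libraries. Their share per library was 55.4%, 59.0%, 58.1%, 58.1% and 58.3% in DMSO libraries 1 to 5, a mean of 57.8% ± 1.36 (SD, n = 5). At 15 pM it was 58.6%, 61.0%, 60.1%, 54.1% and 59.4% in libraries 1 to 5, a mean of 58.6% ± 2.70 (SD, n = 5). At 150 pM it was 52.8%, 56.6%, 52.2%, 61.9% and 60.9% in libraries 8 to 12, a mean of 56.9% ± 4.47 (SD, n = 5). The groups overlapped, and the means differed by less than the SD within the rotenone groups. Without 150 pM libraries 8 and 10 the mean at 150 pM was 59.8% ± 2.83 (SD, n = 3), and without 15 pM library 4 the mean at 15 pM was 59.8%.

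Ranks 51 to 142 held more of the counts in each 150 pM library than in any DMSO library. Ranks 1 to 10 held 27.9% ± 1.35 of a DMSO library, against 28.5% ± 3.24 for the lower dose and 24.5% ± 4.59 for the higher (SD over 5 libraries). At 150 pM it was 20.8% in library 8 and 18.8% in library 10, and the other 3 libraries averaged 27.6% ± 2.21 (SD, n = 3). Ranks 11 to 50 held 17.2% ± 0.784, 17.1% ± 1.44 and 18.0% ± 0.607 in the same order of groups. Ranks 51 to 142 held 12.7% ± 0.480 in DMSO (12.2% to 13.3%), 13.0% ± 0.812 at 15 pM (11.5% to 13.6%) and 14.4% ± 0.890 at 150 pM (13.5% to 15.9%). For this last tier the 5 libraries at 150 pM all lay above the 5 of DMSO, while the 15 pM group overlapped both. This tier holds the members nearest the threshold. Of the 142, 19 were at or under 1000 CPM in the DMSO mean and 7 in the 150 pM mean. Where a member was listed through the rotenone groups, a higher level in those groups was fixed by the choice. The order of the groups in this tier is therefore a description only. The number of genes needed to reach 50% of a library's counts was 69 to 90 in DMSO and 57 to 70 at 15 pM. At 150 pM it was 53 and 58 in libraries 11 and 12, 80 in library 9, and 112 and 115 in libraries 8 and 10.

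**Figure D2:**
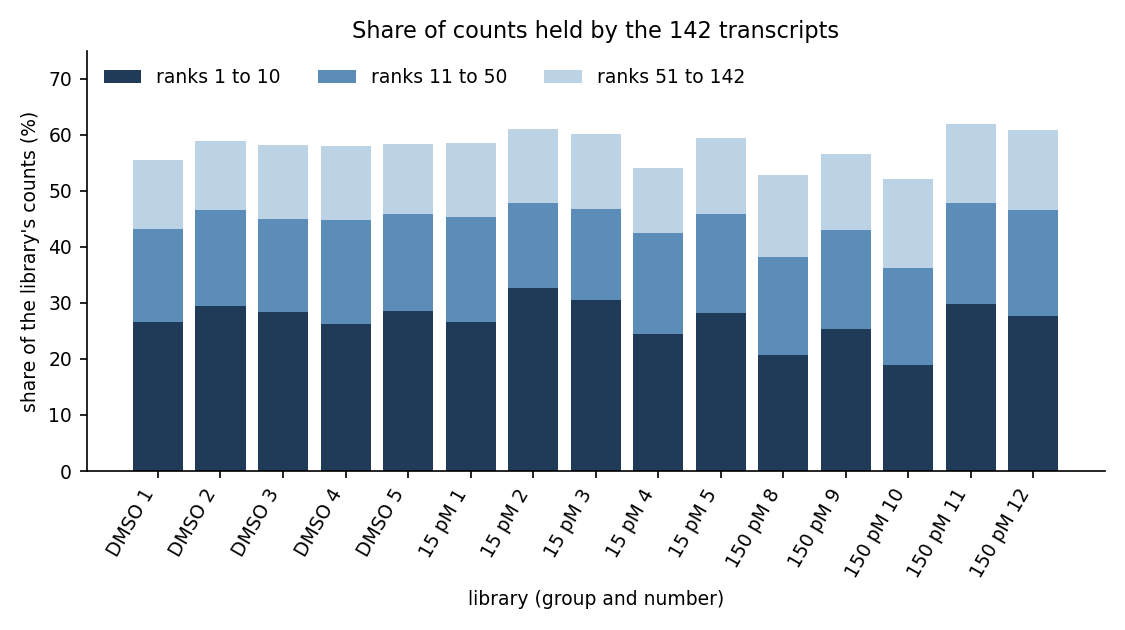
Share of each library's counts (%) held by ranks 1 to 10, 11 to 50 and 51 to 142 of the abundant transcripts, stacked, for the 15 libraries. The stacks reach 52.2% to 61.9%. The darkest part is shortest in 150 pM libraries 8 and 10, and the lightest part is larger in all 5 libraries at 150 pM than in DMSO. Some transcripts of the lightest part were at or under 1000 CPM in the DMSO mean.

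Over all 15 libraries the abundant transcripts varied between livers about as much as genes in general, and somewhat less without 15 pM library 4. The spread of a gene was measured as the SD of log2 CPM within groups, and its median was 0.385 over the 142 and 0.389 over all 15834 genes tested. Genes averaging 100 to 1000 CPM had a median of 0.390, and those averaging 10 to 100 CPM had 0.287. Without 15 pM library 4 the medians of the 142 and of all genes were 0.263 and 0.319. Within DMSO they were 0.240 and 0.258, within 150 pM 0.247 and 0.314, and within 15 pM 0.495 and 0.444, or 0.281 and 0.300 without library 4. The median spread was 0.539 for ranks 1 to 10, 0.426 for ranks 11 to 50 and 0.285 for ranks 51 to 142. The medians of these tiers lay closer together when 15 pM library 4 was left out, at 0.351, 0.29 and 0.243. The highest library exceeded the lowest at least 2-fold in 98 of the 142 and at least 10-fold in 25. Without 15 pM library 4 these numbers were 77 and 15, and within the 5 DMSO libraries they were 32 and 0. A range tends to grow with the number of libraries, and ranges over all groups also hold differences between groups. The DMSO numbers are therefore not directly comparable with the others.

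The 5 abundant transcripts with the largest spread were ranks 91, 132, 68, 48 and 66. Rank 91 stood at 939, 1864, 1610.4, 1199.9 and 1290.2 CPM in DMSO, at 1095, 2275, 1947, 12.4 and 1408 CPM at 15 pM and at 1596, 2201, 660.0, 2524 and 1902 CPM at 150 pM. Its 203-fold range rested on 15 pM library 4 and was 3.82-fold without it. Rank 68 behaved alike, with 958, 3471, 2010.3, 32.2 and 1569 CPM at 15 pM, and its range went from 113-fold to 4.16-fold without library 4. Rank 132 was spread over all groups, with 335, 601, 698, 1555 and 408 CPM in DMSO, 384, 622, 562, 4365 and 377 CPM at 15 pM and 1551, 861, 3709, 56.6 and 97.4 CPM at 150 pM. Its 2 highest libraries were 15 pM 4 and 150 pM 10 and its 2 lowest were 150 pM 11 and 12, and its range was still 65.6-fold without 15 pM library 4. The mean of rank 132 was 1079 CPM, and it lay above 1000 CPM only in DMSO 4, 15 pM 4 and 150 pM 8 and 10. Its place on the list came from these libraries, so a high level in them was fixed by the choice. Rank 48 stood at 951, 3059.5, 1563, 6313 and 1336 CPM in DMSO, at 6140.2, 183, 349, 2646 and 1868 CPM at 15 pM and at 3499.9, 1011, 3808, 956 and 1060.1 CPM at 150 pM. Its highest values came from DMSO 4 and 15 pM 1 and its lowest from 15 pM libraries 2 and 3.

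The 5 steadiest were ranks 77, 45, 99, 76 and 113, with a spread of 0.147 to 0.168 on the log2 scale. Rank 77 stood at 1451, 1564, 1721, 1599.7 and 1661 CPM in DMSO, at 1494, 1916, 1998, 1366 and 1627 CPM at 15 pM and at 1798, 1876, 1921, 1909 and 1829 CPM at 150 pM. Its highest library exceeded its lowest 1.46-fold, and its 5 values at 150 pM lay above the 5 of DMSO. Rank 113 stood at 1042, 1055, 1174, 1032 and 1162 CPM in DMSO, at 1073, 1369, 1372, 874 and 1065 CPM at 15 pM and at 1316, 1336, 1352, 1345 and 1334 CPM at 150 pM. Its 150 pM libraries lay above those of DMSO, while the 15 pM group spanned both. Ranks 77 and 113 belong to a set of 32 described below that moves together, so they are not independent observations. All libraries at 150 pM lay above DMSO in 28.2% of the 142 and 5.08% of all genes, a number that depended on the scaling, as described below.

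**Figure D3:**
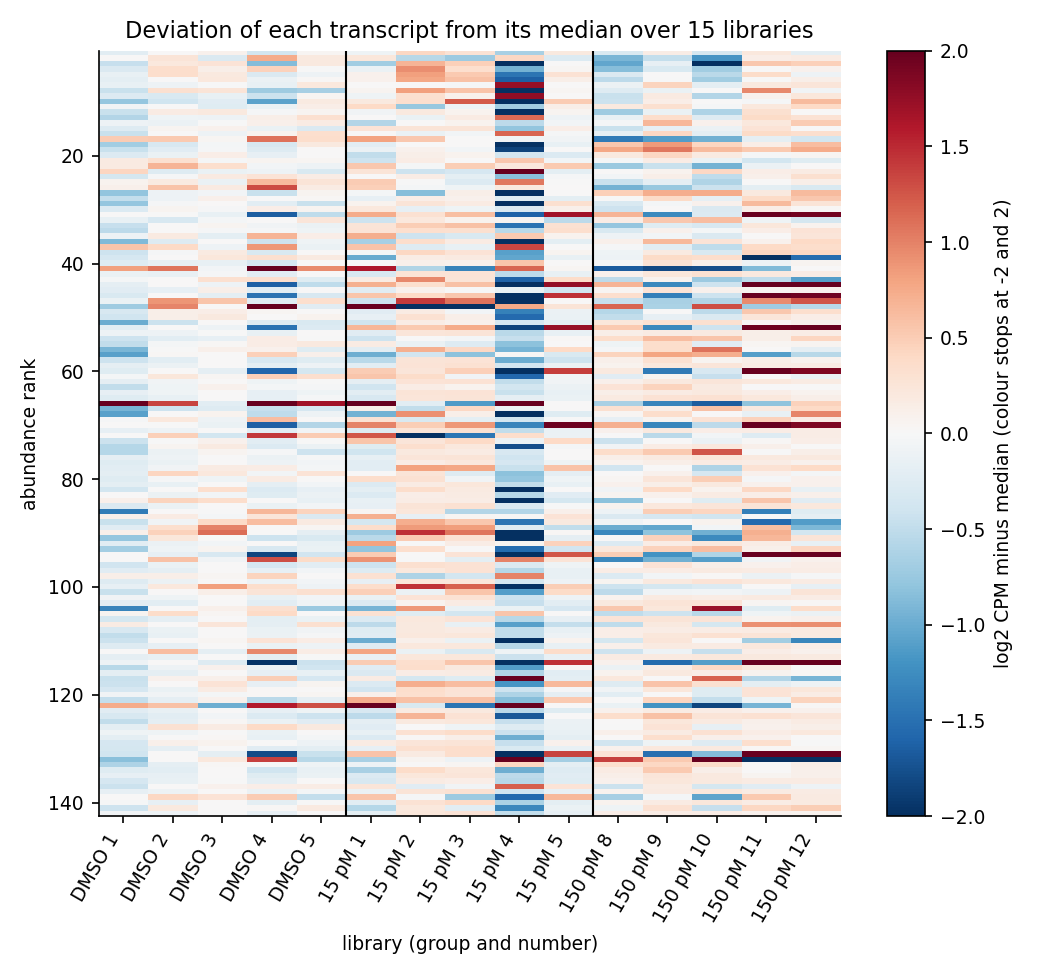
Deviation of each of the 142 abundant transcripts from its own median over 15 libraries, in log2 CPM, with the abundance rank on the vertical axis and the libraries in columns. Blue is lower and red higher. The column of 15 pM library 4 is mostly blue. Its levels deviated from the median by 0.769 (median of the absolute values), against 0.0791 to 0.291 in the other 14 libraries. Over all genes tested its deviation was 0.592, against 0.152 to 0.286 in the other 14.

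In 15 pM library 4 most abundant transcripts were at their lowest. This library was the lowest of the 15 in 88 of the 142 (62.0%), against 24.8% of all genes tested, and the highest of the 15 in 16 of the 142, against 21.5% of all genes. It lay at least 2-fold below the lowest of the other 14 in 22 abundant transcripts (15.5%), against 6.97% of all genes. In 10 (7.04%), against 2.68% of all genes, it lay at least 4-fold below. These were ranks 3, 8, 10, 12, 29, 47, 68, 91, 100 and 110. It lay at least 2-fold above the highest of the others in ranks 7, 9 and 23 (2.11%), which was no more than the 2.9% of all genes. Rank 7 stood at 13874, 13943, 13625, 46251 and 13818 CPM in 15 pM libraries 1 to 5, and the DMSO and 150 pM libraries lay between 12067 and 18899.7 CPM. Rank 9 had 9511, 12705, 10718, 34635 and 10142 CPM at 15 pM, while the DMSO and 150 pM libraries lay between 6731 and 11893 CPM. Rank 10 went the other way, with 12070.4, 13310.0, 24765, 429 and 15076 CPM at 15 pM. Of the 88, 28 belong to a set of 32 and 7 to a set of 9, both described below. The members of each set move together and are not independent observations. Without this library the list held 142 genes, of which 138 were on the main list. A member listed through a high level in this library was bound to be high in it. These patterns were picked after the values were seen and describe 1 library. The labels set nothing apart about it, its total of 24251062 counts was within the range of the others, and what else may differ in it was not tested.

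The 150 pM group was also split, but without a general fall of the abundant transcripts. Their median deviation from their own medians, in log2 CPM, was 0 in library 8 and 0.0168 in library 10. In 15 pM library 4 it was -0.525. Libraries 8 and 10 both lay below the other 3 of their group in 43 of the 142 abundant transcripts (30.3%), against 11.6% of all genes tested, and both above them in 5 (3.52%), against 15.1%. Among these, rank 3 stood at 20690.3 and 10405 CPM in libraries 8 and 10 and at 38101 to 62139 CPM in the other 3. Libraries 11 and 12 were the 2 highest of all 15 in 12 (8.45%), against 4.43% of genes tested. Of these 12, 8 belong to a set of 9 described below that moves together, so they are not independent observations. Both pairs of libraries were picked after the values were seen, and the counts are a description only.

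No abundant transcript passed the test between 15 pM rotenone and DMSO. In this comparison, edgeR's quasi-likelihood test at an adjusted p under 0.05 (Benjamini-Hochberg over all 15834 genes) called 667 genes, 4.21% of those tested (0.524% higher and 3.69% lower), and 0 of the 142. At an unadjusted p under 0.05 there were 7 of the 142, against 18.3% of all genes. Of the 142, limma voom called 0, against 4.98% of all genes, and DESeq2 called 3, against 8.55%. Without 15 pM library 4 edgeR's test called 3, against 8.57% of all genes. All 3 were higher at 15 pM. They were rank 10 (log2 fold change 1.05, adjusted p = 0.038), rank 73 (0.53, adjusted p = 0.0383) and rank 121 (0.88, adjusted p = 0.0131). The 2 groups did not separate in any of the 142, where 6.25% of all genes had groups that did not overlap (1.67% higher and 4.58% lower). For the abundant transcripts the median log2 fold change was 0.06, beside 0.03 over all genes, and the median standard error was 0.25. Rank 9 illustrates the weight of a single library. Its log2 fold change was 0.83 ± 0.34 (SE), with an adjusted p of 0.192, and 4 of the 5 libraries at 15 pM were between 9511 and 12705 CPM.

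At 150 pM, 4 of the 142 differed from DMSO, 1 higher and 3 lower. The same test called 896 genes, 5.66% of those tested (2.13% higher and 3.52% lower), so the share of abundant transcripts called, 2.82%, was no larger than that of all genes. Rank 17 (Nfu_g_1_002596, 7894 bases) stood at 8843, 8888, 6369, 13119 and 7906 CPM in DMSO, at 10781, 8978, 6204, 5883 and 5913 CPM at 15 pM and at 2321, 2850.4, 3188, 5484 and 4833 CPM at 150 pM. All 5 values at 150 pM lay below all others, and its log2 fold change against DMSO was -1.27 ± 0.28 (SE), with an adjusted p of 0.0193 by edgeR. Rank 26 (Nfu_g_1_017066, 6712 bases) stood at 4079, 5627, 4291, 9374 and 4262 CPM in DMSO, at 5298, 3704, 3594, 4358 and 3797 CPM at 15 pM and at 1980.1, 2247, 2832, 3319 and 3083 CPM at 150 pM. Its 150 pM libraries were again below every other library, and against DMSO its log2 fold change was -1.04 ± 0.25 (SE), with an adjusted p of 0.027 by edgeR. For both, DMSO library 4 was the highest of all 15. Rank 41 (456 bases) stood at 3624, 4336, 1989, 9118 and 3955 CPM in DMSO, at 6349.6, 1362, 817, 4603 and 2129 CPM at 15 pM and at 649.8, 589, 605, 1115 and 2062 CPM at 150 pM. The groups overlapped through DMSO library 3 and 150 pM library 12, and its log2 fold change against DMSO was -2.20 ± 0.58 (SE), with an adjusted p of 0.0403 by edgeR. Rank 67 (Nfu_g_1_020919, 3703 bases) stood at 949, 1358, 1515, 1323 and 1432 CPM in DMSO, at 1977, 1289, 2425, 1682 and 1817 CPM at 15 pM and at 2261, 1973, 2717, 2085 and 2389 CPM at 150 pM. Its 150 pM values were all above those of DMSO, with DMSO library 1 the lowest, and its log2 fold change was 0.80 ± 0.18 (SE), with an adjusted p of 0.0226 by edgeR.

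The number of abundant transcripts called at 150 pM against DMSO depended on single libraries. It was 2 without DMSO library 1, 0 without DMSO library 2, 1 without DMSO library 4, 2 without 150 pM library 8, 2 without 150 pM library 9 and 0 without 150 pM library 10. These fits called 1.96% to 5.02% of all genes. The number was 10 without 15 pM library 4, against 12.1% of all genes. That library enters through the shared estimate of the spread and the scaling. When the 10 libraries of both groups were fitted alone, 14 were called (9 higher, 5 lower), against 11.8% of all genes. DESeq2 called 13, against 11.7% of all genes. Without 150 pM libraries 8 and 10 together 0 were called, against 2.61% of all genes. The log2 fold changes were then -1.02 for rank 17, -0.92 for rank 26, -1.86 for rank 41 and 0.72 for rank 67. When 15 pM library 4 was left out as well, 5 were called, against 8.47% of all genes. All 5 were higher at 150 pM, at ranks 18, 19, 28, 67 and 94 (edgeR adjusted p of 0.00537 to 0.047). By transcript, rank 17 lost its call without DMSO library 2, DMSO library 4 or 150 pM library 10 (edgeR adjusted p of 0.0536 to 0.0539). Rank 26 lost it without any one of these or of 150 pM libraries 8 and 9 (0.0567 to 0.0744). Rank 67 lost it without DMSO library 1, DMSO library 2 or 150 pM library 10 (0.0533 to 0.0669). Rank 41 lost it without any one of DMSO libraries 1, 2, 4 and 5, 15 pM library 5 and 150 pM libraries 8 to 11 (0.0514 to 0.0946). No log2 fold change of these 4 changed sign under any of the 23 alternatives. For ranks 17, 26 and 67 the groups did not overlap, so leaving libraries out could hardly reverse the sign and is no test of it.

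**Figure D4:**
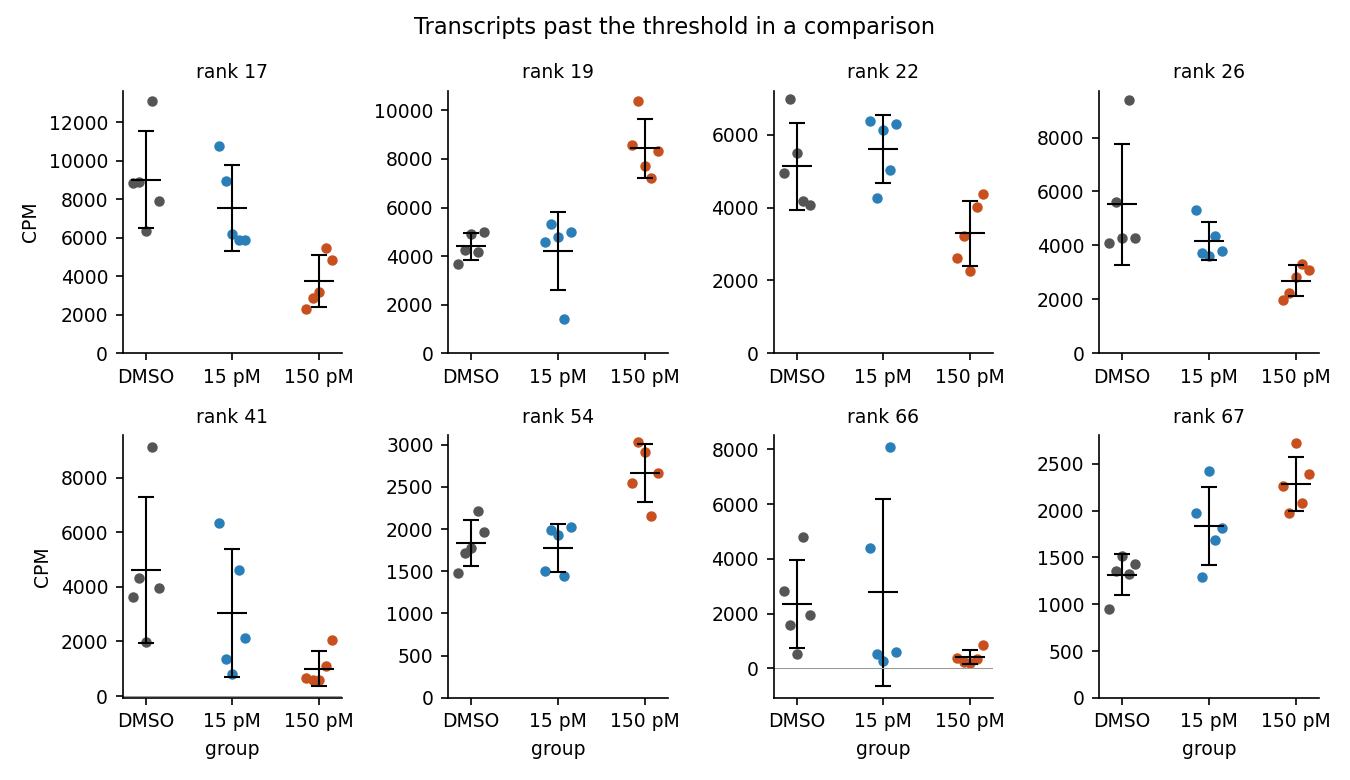
Levels in CPM of the 8 abundant transcripts past the threshold in a comparison of groups, by group. Points are single libraries, and black marks are the mean ± SD of 5 libraries. Ranks 17, 22, 26, 41 and 66 are low at 150 pM, and ranks 19, 54 and 67 are high there. Those ranks past the threshold against DMSO are 17, 26, 41 and 67, and against 15 pM they are 17, 19, 22, 54 and 66.

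Between the doses, 5 of the 142 differed, of which 2 were higher with the larger dose and 3 were lower. The test called 2240 genes in this comparison, 14.1% of those tested (9.14% higher and 5% lower), against 3.52% of the abundant transcripts. Groups did not overlap in 6 of the 142 (4 higher and 2 lower), where 10.6% of all genes did not overlap (7.19% higher and 3.42% lower). Rank 19 stood at 3672, 4252, 4913, 4172 and 4999 CPM in DMSO, at 4588, 5307, 4797, 1392 and 4999 CPM at 15 pM and at 8556, 10368, 7719.9, 7209 and 8322 CPM at 150 pM. The 5 values at 150 pM lay above the other 10, and the log2 fold change against 15 pM was 1.0 ± 0.28 (SE), with an adjusted p of 0.029 by edgeR. Against DMSO it was 0.94 ± 0.28 (SE), with an adjusted p of 0.0633 in edgeR. That comparison passed the threshold without 15 pM library 4 (adjusted p = 0.0011), in the 10 libraries of both groups alone (0.0025), without 15 pM library 4 and 150 pM libraries 8 and 10 (0.00537) and with DESeq2 (0.00914). Rank 54 (Nfu_g_1_012447) stood at 1499, 1987, 1926, 1438 and 2024 CPM at 15 pM and at 2549, 3034, 2913, 2157 and 2667 CPM at 150 pM, and at 1831 ± 273 CPM in DMSO (SD, n = 5). The doses did not overlap, and it had a log2 fold change of 0.59 ± 0.16 (SE), with an adjusted p of 0.0264 by edgeR. Rank 17, described above, had a log2 fold change of -1.02 ± 0.28 between the doses (SE), with an adjusted p of 0.0274 by edgeR.

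The other 2 were lower at 150 pM with groups that overlapped. Rank 22 stood at 6387, 4254, 6124, 5045 and 6293 CPM at 15 pM, at 2616, 3228, 2265, 4019 and 4376 CPM at 150 pM and at 5138 ± 1187 CPM in DMSO (SD, n = 5). Its log2 fold change was -0.77 ± 0.22 (SE), with an adjusted p of 0.0319 by edgeR. Rank 66 stood at 2821, 1570.2, 529, 4809 and 1963 CPM in DMSO, at 4402, 531, 280.2, 8087 and 613 CPM at 15 pM and at 391, 245, 194, 352 and 841 CPM at 150 pM. It was above 1000 CPM in the means of DMSO and 15 pM only, so its place on the list came from those groups. Its log2 fold change was -2.78 ± 0.87 (SE), with an adjusted p of 0.0461 by edgeR. Without 15 pM library 4 it was -1.87, with an adjusted p of 0.116. Between the doses 0 of the 142 were called without 15 pM library 1 or any one of 150 pM libraries 8 to 10. These fits called 9.53% to 13.1% of all genes. With the 10 libraries of these groups fitted alone 0 were called, against 6.86% of all genes. The count was 8 without 15 pM library 3, against 14.8% of all genes, and 9 without 15 pM library 4, against 15%. It was 8 under scaling by library totals alone (6 higher, 2 lower), against 10.8%, and 14 with DESeq2, against 20.9%. All 5 lost their calls without 15 pM library 1 or any of 150 pM libraries 8, 9 and 10, with edgeR adjusted p-values of 0.0505 to 0.096. All 5 also lost them without 150 pM libraries 8 and 10 together. The log2 fold changes were then 1.02 for rank 19, 0.55 for rank 54, -0.80 for rank 17, -0.55 for rank 22 and -2.57 for rank 66 (edgeR adjusted p of 0.0985 to 0.19). That fit called 1 other abundant transcript, rank 107, and 5.32% of all genes. Ranks 19 and 54 also lost it without 150 pM library 12 (0.0516 and 0.0568), and rank 22 without 15 pM library 3 or 5 (0.052 and 0.0557). Rank 66 also lost it without 150 pM library 11 (0.0857) or any one of DMSO libraries 1, 2, 4 and 5 (0.0502 to 0.0587), and limma voom gave it a log2 fold change of -1.84 with an adjusted p of 0.163. The comparisons share libraries, so calls in more than 1 of them are not separate evidence.

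Many of the less abundant members lay higher at 150 pM than in DMSO, most of them slightly and without passing the edgeR test. In 40 of the 142 (28.2%) all 5 libraries at 150 pM lay above all 5 of DMSO, where 5.08% of all genes did. In 3 (2.11%), ranks 17, 26 and 105, all 5 lay below, where 6.2% of all genes did. The median ratio of means in the 40 was 1.22 (1.14 to 1.92), 36 of them were at rank 51 or beyond, and 1, rank 67, was called. At an unadjusted p under 0.05 there were 10 of the 40, against 22.1% of all genes. The median length of the 40 was 1418 bases. For 8 of the 40 the DMSO mean was at or under 1000 CPM while the 150 pM mean was above it, so their place on the list rested on the rotenone groups and a higher level there was fixed by the choice. The number depended on the scaling. It was 39 with RLE factors and 42 with upper-quartile factors, but 14 with library totals alone, when 3.05% of all genes lay above. Without 150 pM libraries 8 and 10 it was 51, when 8.42% of all genes lay above. Leaving libraries out could only keep or raise the number, because the scaling from all 15 libraries was kept. TMM factors were 1.13 and 1.12 in 150 pM libraries 8 and 10 and 0.904 to 0.969 in the other 3 of that group. Over all 142, the median log2 fold change at 150 pM was 0.22, beside 0.01 over all genes, and it was 0.20 with library totals.

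Of these 40, 31 belonged to a set of 32 of abundant transcripts that kept almost the same ratio to each other in every liver. The set was built after the values were seen, by linking transcripts whose log2 ratio over the 15 libraries had an SD of at most 0.1 and taking the largest linked group. It lies between ranks 42 and 142, with a median length of 1147 bases against 2488 for the other abundant transcripts. The median SD of the log2 ratio over its 496 pairs was 0.0767, against 0.642 over all 10011 pairs of abundant transcripts. The set was linked by a small SD, so the lower value largely follows from the rule and is a description only. Because they move together, the 32 are not independent observations. Their summed level was 39786, 41841, 45753, 40815 and 43867 CPM in DMSO libraries 1 to 5, 39011, 53789.9, 54799.7, 33570.0 and 41763 CPM at 15 pM and 49258, 52445, 53137, 50857 and 50266 CPM in 150 pM libraries 8 to 12. The means were 42412 ± 2400 in DMSO, 44587 ± 9350 for the lower dose and 51193 ± 1590 for the higher (SD over 5 libraries). At 150 pM all 5 libraries were above DMSO, whereas the 15 pM group ran from the lowest of the 15, in library 4, to the highest, in library 3. The lower dose averaged 47341 ± 8120 CPM without 15 pM library 4 (SD, n = 4), and without libraries 8 and 10 the higher dose averaged 51189 ± 1130 CPM (SD, n = 3). The narrow range at 150 pM held under TMM scaling. As a share of each library's counts the 32 held 4.32% ± 0.25 in DMSO (4.05% to 4.57%), 4.3% ± 0.537 at 15 pM (3.74% to 5.05%) and 5.16% ± 0.573 at 150 pM (4.59% to 5.92%). On that scale the lowest 150 pM library, 11, lay just above the highest of DMSO, and the highest were 150 pM libraries 10 and 8. For 7 of the 32 the DMSO mean was at or under 1000 CPM, against 0 for the 150 pM mean. The place of these 7 on the list rested on the rotenone groups, so a higher level there was fixed by the choice. Of the 32, 0 were called at 150 pM against DMSO, with edgeR adjusted p-values of 0.179 to 0.467. By the same test 5 of the 32 had an unadjusted p under 0.05, against 22.1% of all genes. DESeq2 called ranks 65 and 85 (adjusted p of 0.0348 and 0.0483), and edgeR on the 10 libraries of both groups alone called ranks 65 and 106 (0.0453 and 0.0405). Their log2 fold changes ran from 0.19 to 0.36 with a median standard error of 0.15. Rank 65, with the lowest of these adjusted p-values, stood at 1520.1, 1627, 1800.4, 1598 and 1768 CPM in DMSO, at 1438, 2141, 2159.7, 1581 and 1643 CPM at 15 pM and at 2049.6, 2202, 2216, 2083 and 1949 CPM at 150 pM.

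**Figure D5:**
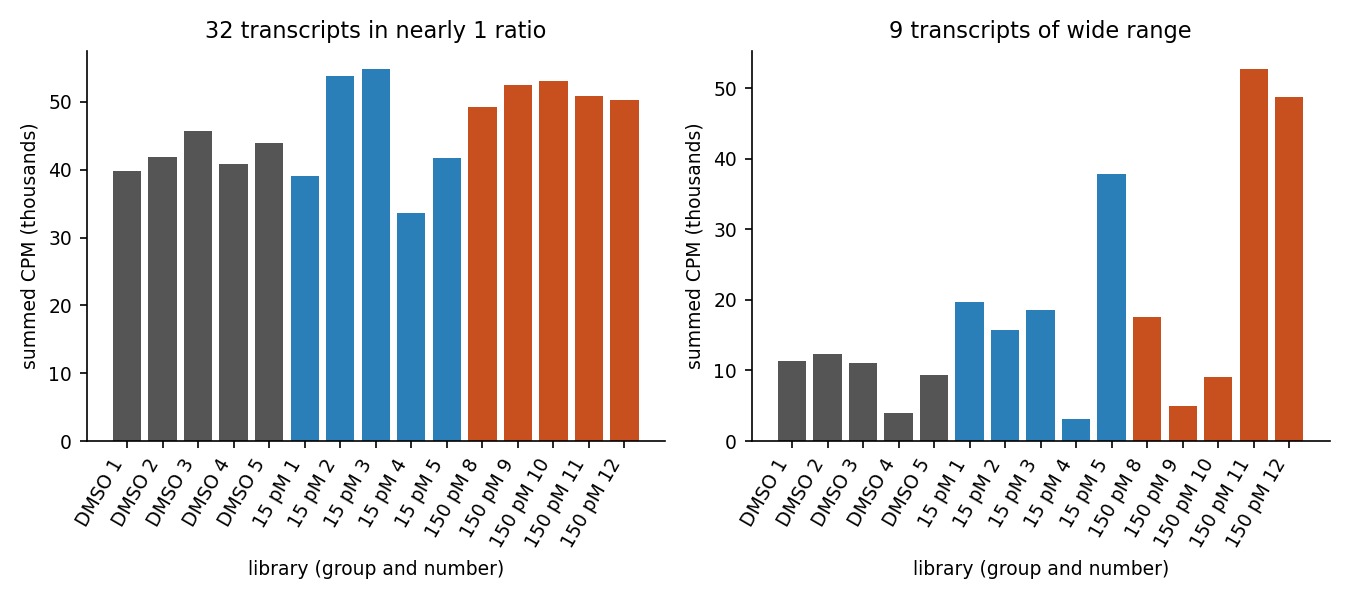
Summed level, in units of 1000 CPM, of 2 sets of abundant transcripts in each of the 15 libraries, coloured by group (grey DMSO, blue 15 pM, orange 150 pM). On the left, 32 transcripts in nearly 1 ratio lie between 49258 and 53137 CPM in all 5 libraries at 150 pM and between 39786 and 45753 CPM in DMSO. On the right, 9 transcripts of wide range reach 52655 and 48761 CPM in 150 pM libraries 11 and 12. For 7 of the 32 and 4 of the 9 the DMSO mean was at or under 1000 CPM. A higher level of these in the rotenone groups was fixed by the choice.

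A second set of 9 abundant transcripts varied widely and moved together from liver to liver. It was also built after the values were seen, from transcripts with at least a 10-fold range whose log2 ratios had an SD of at most 0.25, and holds ranks 31, 44, 46, 52, 60, 70, 94, 114 and 131. The median range of its members was 20.4-fold. Their summed level was 11305, 12357, 11110.2, 4019 and 9309 CPM in DMSO, 19666, 15681, 18588, 3063 and 37887 CPM at 15 pM and 17594, 4955, 9068, 52655 and 48761 CPM at 150 pM. It was high in 150 pM libraries 11 and 12 and in 15 pM library 5, and low in 15 pM library 4, DMSO library 4 and 150 pM library 9. The means were 9620 ± 3320 in DMSO, 18977 ± 12500 for the lower dose and 26607 ± 22500 for the higher (SD over 5 libraries), and the 3 groups overlapped. The mean at the lower dose was 22956 ± 10100 CPM without 15 pM library 4 (SD, n = 4), and without libraries 8 and 10 the higher dose averaged 35457 ± 26500 CPM (SD, n = 3). For 4 of the 9, ranks 70, 94, 114 and 131, the DMSO mean was at or under 1000 CPM and both rotenone means were above it. Their place on the list rested on the rotenone groups, so a higher level there was fixed by the choice of members and is a description only. At 150 pM against DMSO, 6 of the 9 had an unadjusted p under 0.05 by edgeR, against 22.1% of all genes. As the 9 move together, they are not independent observations. The log2 fold changes of the 9 at 150 pM ran from 1.38 to 1.56, and 0 passed the threshold (edgeR adjusted p of 0.181 to 0.245). Rank 94 passed it without 15 pM library 4 and 150 pM libraries 8 and 10, with a log2 fold change of 2.05 and an edgeR adjusted p of 0.047. Rank 31 stood at 2541, 2539.9, 2298, 808 and 1795 CPM in DMSO, at 4227, 3134, 3853, 829 and 8154 CPM at 15 pM and at 4056, 1056, 2097, 11207 and 9641 CPM at 150 pM. Its log2 fold change was 1.49 ± 0.63 (SE), with an edgeR adjusted p of 0.181. The 150 pM libraries spanned 1056 to 11207 CPM, and the DMSO libraries 808 to 2541 CPM.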

How the data were processed

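Liver RNA of 15 libraries in 3 groups of 5 was sequenced, per the labels' protocols from TruSeq RNA kit v2 libraries, which do not mark strand. Tools named in the submitters' processing notes are featureCounts 1.4.6-p4, STAR 2.4.1d and CASAVA 1.8.2. Not given in the sources used here are the build, the annotation and how multi-mapped reads were handled, so genes with near-identical copies and overlapping or antisense genes are uncertain. The authors deposited read counts per gene, whole numbers that are not normalized, and a table of RPKM. The deposited RPKM values gave 1 length per gene, within 0.2%, when library totals were recycled along the rows of the table, in 100% of 105783 values, and with the library's own total in 8.73%. The authors' RPKM therefore served to recover gene lengths, and as an alternative for the order per length.

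The filterByExpr function of edgeR 4.0.16 (R 4.3.3, minimum count 10, by group) kept 15834 genes with 99.9% of the counts. CPM used TMM factors. Log2 CPM used a prior count of 2. The 3 pairwise comparisons came from 1 quasi-likelihood fit of all 15 libraries with 1 mean per group and no covariate, two-sided, with Benjamini-Hochberg adjustment over all genes and a threshold of 0.05. The standard errors (SE) given with edgeR values were not estimated directly. Each is the absolute log2 fold change divided by the square root of the F statistic of its test. No batch, tank or day is given in the labels, so such differences and the groups cannot be told apart. Within groups, 30 pairs of libraries had a chi-square per degree of freedom of 35.6 to 641, far above sampling noise, and none was counted as a copy. Alternatives were RLE factors, library totals, no filter, DESeq2 1.42.0, limma voom 3.58.1, the libraries of a comparison alone, and libraries left out. The scripts were tested on simulated counts.

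The abundant transcripts and the lists were chosen with earlier results of these data known. The rule for named transcripts took the 10 highest means, those past a threshold (at most 2 identifiers printed each way, the others by rank), the 5 largest and 5 smallest spreads, the 3 on each side of 1000 CPM and the 5 highest per length. Transcripts named outside it, the 2 sets of linked transcripts and the counts of groups that did not overlap were chosen after the values were seen. None of the identifiers was found in the reference table (38438 genes, assembly NfurGRZ-RIMD1), so the prepared gene lists and cell type markers were not used. Intervals of counting error were not needed at these counts.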

Additional observations from a re-analysis of the deposited data

Results flagged for a closer look

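For each named transcript and for the share of counts, each group of 5 libraries was examined for a highest or lowest library far from its neighbours, by Dixon's ratio of gap to range at the 95% level. Of 108 groups of values examined, 10 were picked out. Chance alone picks about 1 in 20 when groups are independent and not chosen by their values. Here some transcripts were named for their spread or their call in these same values, and all share the same libraries. The 10 can therefore not be set against that rate. Of the 10, 5 were due to 15 pM library 4.

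In that library rank 7 stood at 46251 CPM with the other 15 pM libraries between 13625 and 13943 CPM. Rank 9 stood at 34635 CPM against 9511 to 12705 CPM. Rank 13 stood at 16254 CPM against 6759 to 8346 CPM, and rank 132 at 4365 CPM against 377 to 622 CPM. Rank 132 was on the list through a few high libraries, this one among them, so its high level here was fixed by the choice. Rank 19 was low instead, at 1392 CPM against 4588 to 5307 CPM.

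Among the 150 pM libraries, rank 8 stood at 26682 CPM in library 11 against 11509 to 13700.0 CPM in the others. Library 9 had 3106 CPM of rank 45 against 2633 to 2720.0 CPM. It also had 1149 CPM of the gene just under the threshold at rank 143, against 1058 to 1068 CPM. Library 10 had 1140 CPM of the gene at rank 145, against 1047 to 1073 CPM. In DMSO, the abundant transcripts held 55.4% of the counts of library 1, against 58.1% to 59.0% in the other 4.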

How the results depend on the processing

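The list held 140 to 143 transcripts when any library was left out, 134 by the median and 113 by the mean of every group. Without 15 pM library 4 it held 142, of which 138 were on the main list. Genes called at 15 pM against DMSO numbered 1354 with DESeq2, 276 in the 10 libraries alone and 258 to 1373 with a library left out, against 667. Of the 142, DESeq2 called 3, and 0 to 3 were called with a library left out. Without 15 pM library 4 and 150 pM libraries 8 and 10 these were 1496 genes and 5 abundant transcripts.

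At 150 pM against DMSO, library totals called 511 genes (137 higher and 374 lower, against 338 and 558), DESeq2 1859, the 10 libraries alone 1812 and fits without a library 315 to 1942. Abundant transcripts called were 13 with DESeq2, 14 in the 10 libraries alone and 0 to 10 without a library. Without 150 pM libraries 8 and 10, 422 genes and 0 abundant transcripts were called, and 1362 genes and 5 abundant transcripts (5 higher and 0 lower) when 15 pM library 4 was left out as well.

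Between the doses, 1715 genes (1365 higher, 350 lower) were called with library totals, against 2240 (1448 higher, 792 lower), and 1043 in the 10 libraries alone. Abundant transcripts called were 8 with library totals, 3 without the low-count filter, 14 with DESeq2, 0 in the 10 libraries alone and 0 to 9 without a library. In the same order, these fits called 10.8%, 9.38%, 20.9%, 6.86% and 9.53% to 15% of all genes. Without 150 pM libraries 8 and 10 the test called 861 genes and 1 abundant transcript, and without 15 pM library 4 as well 1340 and 3. Over the 9 called transcripts and comparisons, 132 of 207 alternative fits kept the call, 75 lost it and 0 changed sign. Where the groups did not overlap, leaving libraries out could hardly reverse the sign, so the last count is no test there. The cause of these changes was not tested.

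The median spread was 0.263 without 15 pM library 4 and 0.235 without 150 pM libraries 8 and 10 as well. With each library's own list of genes above 1000 CPM, the share of counts stayed within 1 SD of its group mean. Leaving libraries out of a group could not have moved its mean by 1 SD, so those values are no test of it. Abundant transcripts with every 150 pM library above DMSO numbered 40 to 45 with a library left out and 14 with library totals. Of all genes, 5.46% to 7.14% and 3.05% lay above in these settings. Abundant transcripts with every 150 pM library below DMSO numbered 3 to 7 with a library left out and 7 with library totals. Of all genes, 6.38% to 8.2% and 5.4% lay below. With the scaling kept from all 15 libraries, leaving a library out could only keep or raise both counts. The scalings of these 2 counts were chosen after seeing the data.

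No sign was seen of a pairing by replicate number between libraries of DMSO and 15 pM. Correlations of their deviations were -0.05 to 0.09, and 0 of 5 were over 0.1. Low correlations cannot exclude a shared tank or day, which the labels do not give. With the replicate number as a block, 1 gene and 0 abundant transcripts were called at 15 pM against DMSO. The 150 pM libraries share no number with the other groups, and no paired analysis was possible there because of this.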
